A study of Mus musculus with 35 samples.

Results

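The nuclear-encoded genes of the mitochondrial respiratory chain and ATP synthase were followed through the RNA-seq libraries of mouse zygotes and early 2-cell (2C) embryos. They were chosen by name from the table of 24480 genes: names starting with Nduf (complex I and its assembly factors), Sdha to Sdhd (complex II), names starting with Uqcr (complex III), Cox4 to Cox8 (complex IV) or Atp5 (complex V, the ATP synthase), not on the mitochondrial chromosome, and with at least 100 counts summed over the 35 samples. Of 92 rows with such names, 87 had enough counts. They comprised 38 complex I subunits, 6 complex I assembly factors, 4 genes of complex II, 8 of complex III, 14 of complex IV and 17 of complex V. The 5 rows left out were Ndufaf1 (78 counts in all), Cox8c (69), Cox7a1 (10), Cox8b (9) and Cox7b2 (2). The genes were grouped by name, although the protein of Ndufa4 is known to belong to complex IV, and those of Atp5sl and Atp5s are known as assembly and coupling factors and not as subunits of ATP synthase.

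All embryos were wild-type C57BL/6NRj. The water-injected controls comprised 10 single zygotes and 9 early 2C samples, and the groups that received Kdm5b-yfp mRNA comprised 10 single zygotes and 6 early 2C samples. Kdm5b encodes a histone H3K4 demethylase, here tagged with YFP, and its mRNA was injected at 1150 ng/µl while controls received the nuclease-free water in which it was eluted, so that no group was left uninjected. Zygotes were collected 17 h after ovulation, about 5 to 6 h after injection, and 2C embryos 5.5 to 8 h after division. The 2C embryos came from cryopreserved zygotes that were thawed and injected after they had divided, and their libraries were made on other days than those of the zygotes, so the stage cannot be told apart from thawing or the day of library preparation. Most 2C libraries were whole embryos, 6 of the controls and 5 after Kdm5b-yfp injection. The remaining controls pooled blastomeres taken from different embryos, 2 of them in 1 library and 3 of them in each of 2 libraries, and 1 Kdm5b-yfp library pooled 3.

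Complexes I to IV sit in the inner mitochondrial membrane. Complex I takes electrons from NADH and complex II from succinate, complex III passes them to cytochrome c, and complex IV hands them to oxygen. The proton gradient that complexes I, III and IV build drives ATP synthase. Apart from complex II, which is encoded wholly in the nucleus, each complex combines nuclear-encoded proteins with others from the mitochondrial genome. The early mouse embryo carries mitochondria and mRNA over from the oocyte. In the 2C stage much of this maternal mRNA is degraded while the embryonic genome becomes active.

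Total gene counts ranged from 12597267 to 17797581 in control zygotes, 11627845 to 16632074 in Kdm5b-yfp zygotes, 8705584 to 12877962 in control 2C samples and 11248797 to 13117592 in Kdm5b-yfp 2C samples. Kdm5b itself took 2.30% to 10.4% of the counts in injected zygotes and 8.27% to 15.8% in injected 2C samples. Its share was at most 0.00137% in control zygotes and 0.0190% in control 2C samples, and its row was removed before normalisation. Of the 12 oocyte and zygote markers, 7 were lower and 2 higher in control 2C samples than in control zygotes, and of 12 markers of the 2-cell stage 11 were higher and 0 lower (edgeR, adjusted p under 0.05). The summed level of the 2-cell markers was 91.4 TPM (a length-corrected transcript level, the count per base of exon brought to 1 common sum for all samples) at the median in control zygotes and 758 TPM in control 2C samples. Markers of cumulus cells summed to 29.8 TPM in control zygotes and 31.2 TPM in control 2C samples. Most of that was Cyp19a1 at 27.0 and 18.7 TPM, and the other 9 markers together had medians of 2.81 and 7.79 TPM, with a highest value of 22.6 TPM in a control 2C sample. Ptx3, Tnfaip6 and Foxl2 had a median of 0 at both stages, although single 2C samples reached 10.9 TPM of Tnfaip6 and 4.68 TPM of Foxl2, and Amhr2 had medians of 0 and 1.30 TPM. Only Has2 (1.15, edgeR adjusted p = 0.0518) and Cyp19a1 (-0.28, edgeR adjusted p = 0.325) had enough counts to be tested between the control groups. The part of other cell types in the results was not tested. Sperm markers summed to 18.2 and 12.5 TPM, mostly Prm2, and Tnp2 had a median of 0 in all groups.

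Control 2C replicates 2 and 3 stood apart from the other 2C libraries. They had 11841 and 12155 genes with a count, against 13855 to 15301 in the other 2C samples, and 21 and 23 of the 87 respiratory chain genes had a count of 0 in them, against 1 to 9 in the other 2C samples and 0 to 3 in zygotes. The counts of respiratory chain genes called between the control groups are therefore given with and without these 2 libraries, in all and by complex, while those of other gene lists are given with them. The 2C libraries also fell into 2 sets of 8 consecutive index numbers, here called strips. Strip 11 held 3 control and 5 Kdm5b-yfp samples, and strip 12 held 6 control and 1 Kdm5b-yfp sample.

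The summed level of the 87 genes was lower in control 2C samples than in control zygotes. In control zygotes it ran from 5002 to 6804 TPM with a median of 5723, and in control 2C samples from 2566 to 4308 TPM with a median of 3439, so the groups did not overlap. The Kdm5b-yfp groups did not overlap either, at 5126 to 6289 TPM in zygotes (median 5738) and 3028 to 3454 TPM in 2C samples (median 3232). As a share of all counts, the 87 genes took 0.209% at the median in control zygotes and 0.119% in control 2C samples. These are levels relative to the other transcripts of each sample. Without a spike-in, less of these mRNAs per embryo and more of other RNA cannot be told apart. The pooled samples held 2 or 3 blastomeres, against 2 in an intact 2C embryo, and RNA per cell was not measured.

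By complex, the summed levels of the control groups overlapped in complex IV and in no other complex. Complex II was summed at 327 to 425 TPM in control zygotes (median 357) and 92 to 229 TPM in control 2C samples (median 143). Complex III fell from 335 to 469 TPM (median 390) to between 89.8 and 237 TPM (median 137), and complex I from 1511 to 2087 TPM (median 1725) to between 576 and 1046 TPM (median 845). In these 3 complexes every control 2C sample lay below every control zygote. ATP synthase was at 1265 to 1924 TPM (median 1529) in control zygotes and 618 to 1015 TPM (median 790) in control 2C samples, also without overlap. Complex IV was at 1148 to 1582 TPM (median 1366) in control zygotes and 784 to 1841 TPM (median 1338) in control 2C samples, a range that enclosed that of the zygotes. The complex I assembly factors were at 321 to 418 TPM (median 377) and 156 to 319 TPM (median 200), which just missed each other.

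**Figure D1:**
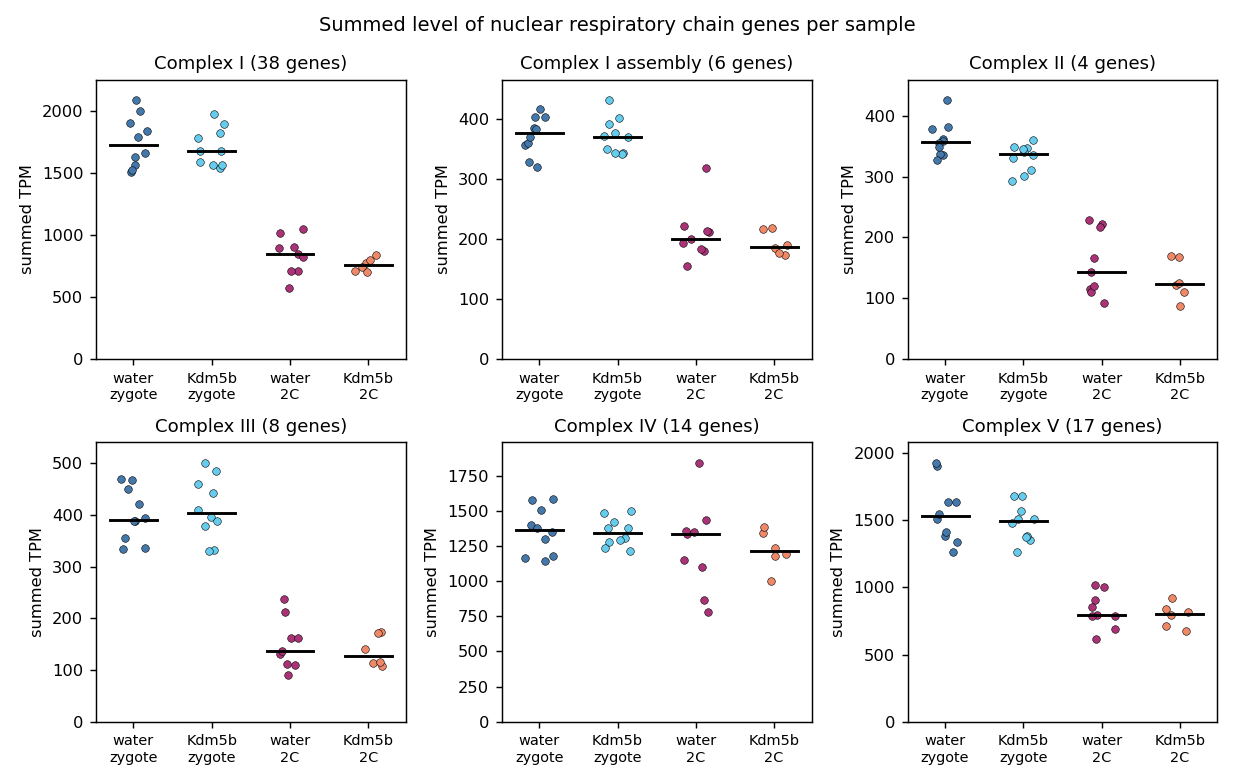
Summed TPM of the respiratory chain genes of each complex (vertical axes, each panel starting at 0), with 1 point per sample in the 4 groups and a bar at the group median. Samples of complexes I, II, III and V separate by stage, whereas those of complex IV overlap, with control medians of 1366 TPM in zygotes and 1338 TPM in 2C samples.

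Gene by gene, 82 of the 87 genes had enough counts to be tested between control 2C samples and control zygotes. Of these, 41 were lower in 2C samples (50%), 4 were higher (4.88%) and 37 did not pass (edgeR quasi-likelihood test, Benjamini-Hochberg adjusted p under 0.05). Among all 11968 genes tested, 25.4% were lower and 26.8% were higher. The median log2 fold change was -0.90 over the 82 genes and 0.02 over all genes tested. With an absolute log2 fold change over 1 as well, 29 of the genes were lower and 4 higher, against 13.0% and 9.2% of all genes tested. Past both thresholds these were 33 genes with all samples and 39 without control 2C replicates 2 and 3. Among all genes tested, 1555 of 11968 were lower and 1101 higher past both thresholds with all samples. Without these 2 libraries, 1705 of 12438 were lower and 1330 higher. Respiratory chain transcripts are short, with a median exon length of 758 bases against 3020 for all genes tested. Among the 822 tested genes of at most 1000 bases, 28.6% were lower and 23.0% higher, with a median log2 fold change of -0.09. The 5 genes without enough counts were Ndufa3, Ndufa4l2, Cox4i2, Cox7c and Atp5s. Every control 2C sample lay below every control zygote for 23 of the 87 genes, and for 11.9% of the genes tested. Without control 2C replicates 2 and 3, 43 genes were lower and 7 higher, with a median of -0.75, where 27.3% of all genes tested were lower and 28.9% higher. Under this setting, 20 of 37 complex I subunits were lower and 3 higher, 5 of 6 assembly factors were lower and 0 higher, 5 of 8 complex III genes were lower and 1 higher, and 3 of 12 complex IV genes were lower and 2 higher, while complex II had 3 of 4 lower and 0 higher and complex V had 7 of 16 lower and 1 higher. With the genes of the mitochondrial genome removed before normalisation the counts were again 41 lower and 4 higher.

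**Figure D2:**
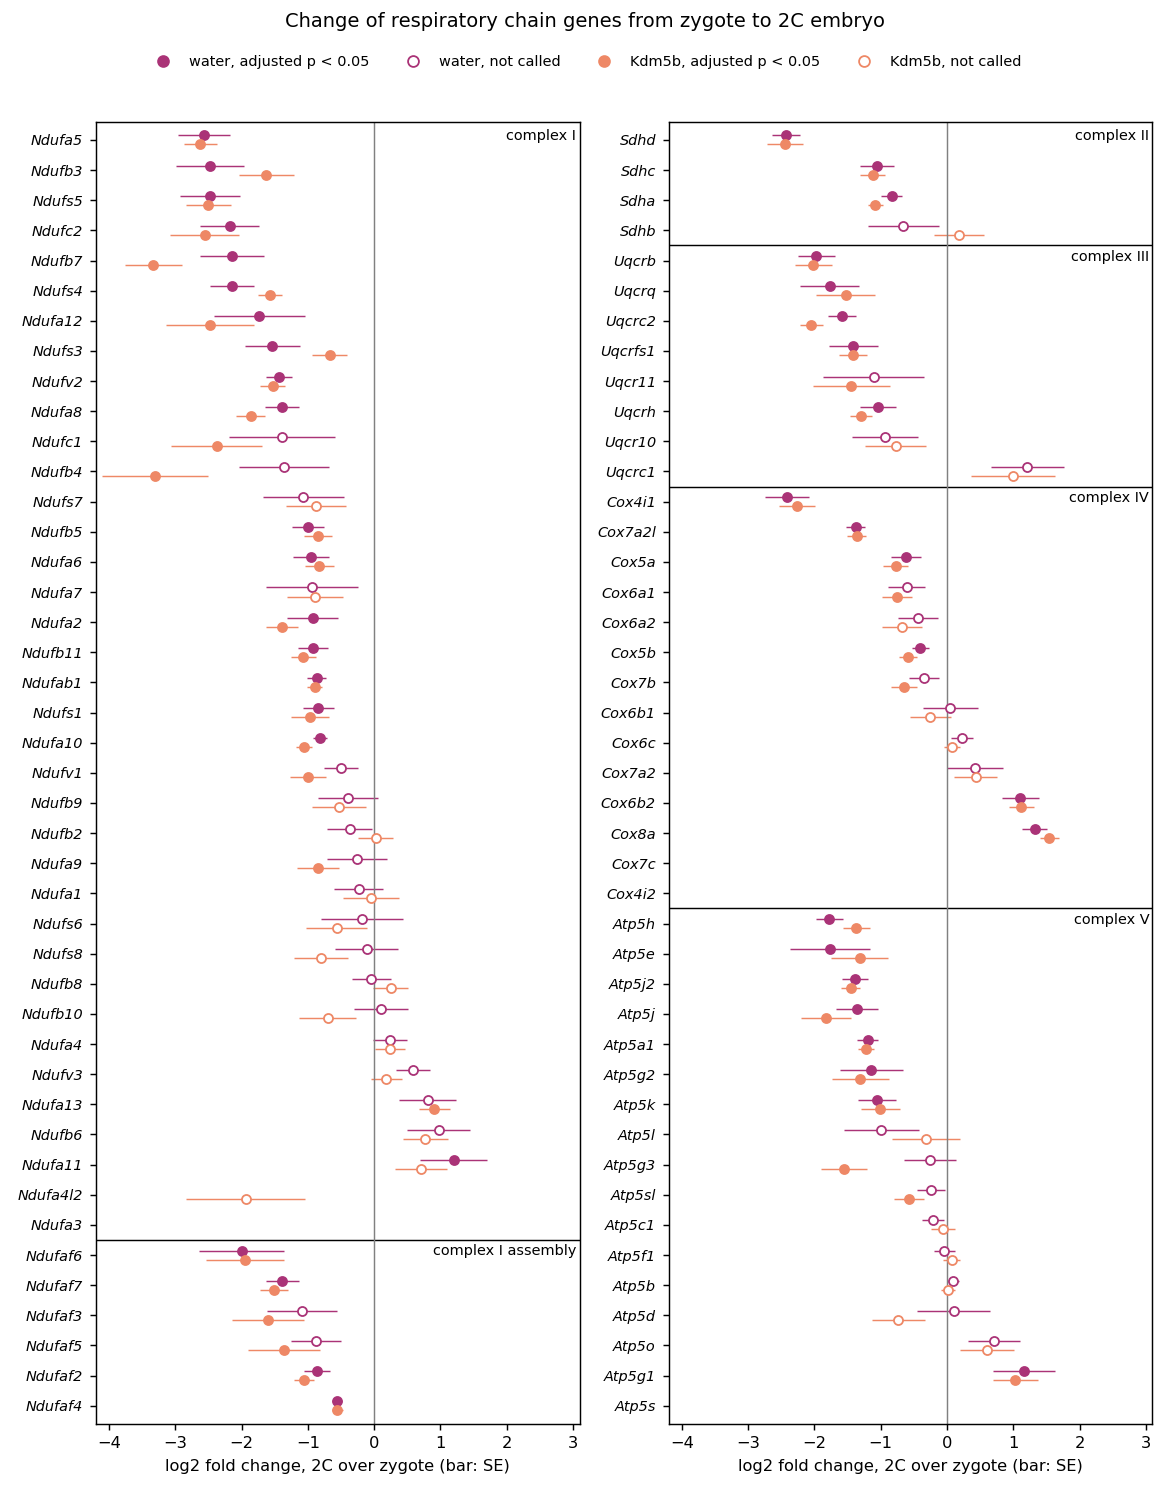
Log2 fold changes of 2C samples against zygotes for the respiratory chain genes, by complex, in the control and the Kdm5b-yfp groups, with bars for the SE and filled points for an adjusted p under 0.05. Most filled points lie below 0 in complexes I, II, III and V, and the few above 0 include Cox8a and Cox6b2 of complex IV.

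Complex I had 18 of its 36 tested subunits lower and 1 higher, with a median log2 fold change of -0.92. Its catalytic core lies partly in the matrix arm, which takes up electrons from NADH and passes them to ubiquinone. Ndufv2, an iron-sulfur protein of the NADH-oxidising module (chromosome 17, 66078795 to 66101559, minus strand of GRCm38), was at 41.0 to 68.9 TPM in control zygotes (median 48.7) and 8.01 to 32.8 TPM in control 2C samples (median 17.7). The groups did not overlap, and it fell by 1.43 on the log2 scale (SE 0.20, edgeR adjusted p = 1.28e-06). Ndufs3, of the ubiquinone-reducing module, fell by 1.53 (SE 0.41, edgeR adjusted p = 0.00289), and Ndufs1, the largest iron-sulfur protein of the complex, by 0.84 (SE 0.23, edgeR adjusted p = 0.00351). Ndufv1, which carries the NADH and flavin sites, did not pass, at -0.50 (SE 0.25, edgeR adjusted p = 0.1). Ndufs7 and Ndufs8, which carry the last iron-sulfur clusters before ubiquinone, were at -1.07 (SE 0.61, edgeR adjusted p = 0.146) and -0.11 (SE 0.47, edgeR adjusted p = 0.862). Ndufs7 passed without control 2C replicates 2 and 3, at -1.56 (edgeR adjusted p = 0.00882).

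Of the accessory subunits, Ndufa5 (chromosome 6, 24518662 to 24527687, minus strand) had the lowest estimate of the tested respiratory chain genes. It was at 55.0 to 123 TPM in control zygotes (median 75) and 0 to 25.2 TPM in control 2C samples (median 13.2). This was a log2 fold change of -2.56 (SE 0.39, edgeR adjusted p = 5.04e-06), with no overlap between the groups. Ndufb7, a subunit of the membrane arm, was at 33.9 to 69.3 TPM in control zygotes (median 49.2) and 0 to 40.9 TPM in control 2C samples (median 6.62), with a log2 fold change of -2.15 (SE 0.48, edgeR adjusted p = 0.000522). Control 2C replicate 3 had the 40.9 TPM, and the next value was 15.9 TPM. Ndufb7 did not pass with the 2C samples of strip 11 only, at -1.67 (edgeR adjusted p = 0.0675). Ndufa11, a membrane subunit, was the single complex I gene called higher, at 1.62 to 6.17 TPM in control zygotes (median 2.82) and 0 to 14.2 TPM in control 2C samples (median 5.08). Its log2 fold change of 1.20 (SE 0.51, edgeR adjusted p = 0.049) was close to the threshold, its groups overlapped, and the call was lost in 16 of the 19 fits that left out 1 sample. With the 2C samples of strip 11 only, it was at -0.58 (edgeR adjusted p = 0.58).

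The assembly factors of complex I had 4 of 6 genes lower and none higher, with a median of -0.98. Ndufaf6 was at 3.70 to 14.3 TPM in control zygotes (median 9.22) and 0 to 8.13 TPM in control 2C samples (median 0.70), a log2 fold change of -2.0 (SE 0.64, edgeR adjusted p = 0.0113). With single intact embryos only it did not pass (-1.78, edgeR adjusted p = 0.0626), nor with the 2C samples of strip 11 only (-1.54, edgeR adjusted p = 0.154). Ndufaf4 changed less but varied little between samples: it ran from 157 to 182 TPM in control zygotes (median 173) and from 97.4 to 131 TPM in control 2C samples (median 110). The groups did not overlap, at -0.56 (SE 0.07, edgeR adjusted p = 4.22e-07).

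Complex II oxidises succinate in the tricarboxylic acid cycle and passes the electrons to ubiquinone. Of its 4 genes 3 were lower, and their levels differed. Sdha (chromosome 13, 74322255 to 74350240, minus strand), the flavoprotein that holds the succinate site, was at 183 to 231 TPM in control zygotes (median 192) and 61.9 to 169 TPM in control 2C samples (median 81.4), at -0.84 (SE 0.16, edgeR adjusted p = 0.00012). The membrane anchors were Sdhc and Sdhd. Sdhd (chromosome 9, 50596340 to 50603849, minus strand) was at 70.3 to 94.9 TPM in control zygotes (median 78.5) and 6.57 to 24.5 TPM in control 2C samples (median 12.9), far from overlapping, with a log2 fold change of -2.43 (SE 0.21, edgeR adjusted p = 7.23e-10). Sdhc was at 52.9 to 91.2 TPM in control zygotes (median 73.4) and 9.88 to 61.5 TPM in control 2C samples (median 41.7). These groups overlapped, at -1.05 (SE 0.25, edgeR adjusted p = 0.00101). The iron-sulfur protein Sdhb was the least abundant of the 4, at 7.60 to 15.7 TPM in control zygotes (median 10.7) and 0 to 18 TPM in control 2C samples (median 6.89). Its log2 fold change of -0.66 did not pass (SE 0.54, edgeR adjusted p = 0.326).

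Complex III had 5 of 8 genes lower and none higher, with a median log2 fold change of -1.26. Uqcrfs1, the Rieske iron-sulfur protein, was at 20.2 to 40.9 TPM in control zygotes (median 29.1) and 0 to 16.9 TPM in control 2C samples (median 11.0), at -1.41 (SE 0.37, edgeR adjusted p = 0.0021). It did not pass with the 2C samples of strip 11 only (-1.49, edgeR adjusted p = 0.0512). Uqcrb, a small subunit, fell further, from 38.3 to 96.7 TPM (median 73) to between 7.12 and 34.6 TPM (median 18.6), at -1.97 (SE 0.28, edgeR adjusted p = 1.59e-06). The core protein Uqcrc2 was at 85.7 to 124 TPM in control zygotes (median 103) and 15.9 to 74.7 TPM in control 2C samples (median 26.0), at -1.58 (SE 0.21, edgeR adjusted p = 6.15e-07). None of these 3 genes had overlapping groups. The other core protein, Uqcrc1, was barely detected, with medians of 2.03 TPM in control zygotes and 3.94 TPM in control 2C samples, and did not pass at 1.21 (edgeR adjusted p = 0.0692). It was called higher without control 2C replicates 2 and 3, at 1.33 (edgeR adjusted p = 0.0403). Of the transcript sequence of Uqcrb, 37.6% was shared with other annotated genes in stretches of 60 bases. The share was 24.4% for Uqcrc2 and 34.3% for Ndufs3 of complex I. Reads that map to several places were not counted, and how many were lost to this was not measured.

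In complex IV, whose summed levels overlapped between the stages, 4 of 12 tested genes were lower (33.3%) and 2 higher (16.7%), with a median of -0.37. These shares are near those of all genes tested, 25.4% lower and 26.8% higher. Cox4i1 (chromosome 8, 120668225 to 120674209, plus strand), the common form of subunit 4, was at 71.6 to 156 TPM in control zygotes (median 105) and 0.32 to 26.7 TPM in control 2C samples (median 21.5). This was a log2 fold change of -2.41 without overlap (SE 0.33, edgeR adjusted p = 1.22e-06). The 0.32 TPM belonged to control 2C replicate 2, and the next lowest sample was at 13.4 TPM. Cox4i2, the form of subunit 4 known from lung, had medians of 1.47 TPM in control zygotes and 0.45 TPM in control 2C samples, too low to be tested. Cox8a (chromosome 19, 7215158 to 7217616, minus strand), the common form of subunit 8, went the other way, from 78.6 to 151 TPM (median 115) to between 137 and 406 TPM (median 275), at 1.32 (SE 0.19, edgeR adjusted p = 1.42e-06). Of the 9 control 2C samples 7 lay above every control zygote, and replicates 2 and 3, at 137 and 146 TPM, did not. The call held in each alternative and with each sample left out, but the size of the change did not: it was 0.58 (SE 0.21, edgeR adjusted p = 0.032) with the 2C samples of strip 11 only and 1.54 (SE 0.14, edgeR adjusted p = 3.2e-09) with those of strip 12 only. Cox8b and Cox8c, forms known from muscle and testis, were among the rows with too few counts.

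Cox6b2, the form of subunit 6B known from testis, had the higher median of the pair with the common form Cox6b1 at both stages. It was at 29.1 to 84.1 TPM in control zygotes (median 58.5) and 33.3 to 206 TPM in control 2C samples (median 107), at 1.11 (SE 0.28, edgeR adjusted p = 0.00148). Its groups overlapped, with 6 of the 9 control 2C samples above every control zygote. The call was lost with single intact embryos only (0.65, edgeR adjusted p = 0.0666) and with the 2C samples of strip 11 only (0.46, edgeR adjusted p = 0.343). Cox6b1 was at 12.2 to 46.7 TPM in control zygotes (median 29.8) and 1.94 to 75.7 TPM in control 2C samples (median 27.3) and did not pass, at 0.05 (SE 0.42, edgeR adjusted p = 0.926). Cox6a1 and its muscle form Cox6a2 did not pass, at -0.61 and -0.43 (edgeR adjusted p = 0.0691 and 0.238). Cox7a2 and Cox7b, whose other forms Cox7a1 and Cox7b2 had too few counts, did not pass either, at 0.43 and -0.34 (edgeR adjusted p = 0.416 and 0.213). Cox6c, with the highest median of the complex in control zygotes, was at 215 to 426 TPM there (median 300) and 204 to 576 TPM in control 2C samples (median 326), at 0.23 (SE 0.17, edgeR adjusted p = 0.277). Cox5b, which binds zinc, fell by 0.41 (SE 0.13, edgeR adjusted p = 0.00964), and Cox7a2l, a relative of subunit 7A, by 1.38 (SE 0.14, edgeR adjusted p = 8.58e-09).

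Complex V had 7 of 16 tested genes lower and 1 higher, with a median of -0.62. The median depended on the fit: over 17 genes it was -0.22 in DESeq2's Wald test and -0.28 with all 35 samples in 1 fit. The alpha and beta subunits alternate in the catalytic head in equal number. Atp5a1, the alpha subunit, was at 264 to 369 TPM in control zygotes (median 310) and 65 to 220 TPM in control 2C samples (median 119), with no overlap. It fell by 1.20 on the log2 scale (SE 0.15, edgeR adjusted p = 4e-07). Atp5b, the beta subunit (chromosome 10, 128083307 to 128090388, plus strand), was at 227 to 291 TPM in control zygotes (median 262) and 219 to 350 TPM in control 2C samples (median 245), at 0.10 (SE 0.09, edgeR adjusted p = 0.377). The TPM ratio of Atp5a1 to Atp5b was therefore 1.05 to 1.36 in control zygotes (median 1.21) and 0.289 to 0.808 in control 2C samples (median 0.449). In the Kdm5b-yfp groups the ratio was 1.03 to 1.29 in zygotes (median 1.17) and 0.407 to 0.596 in 2C samples (median 0.473). Among control 2C samples the ratio was 0.494 to 0.808 in strip 11, highest in replicate 2, and 0.289 to 0.466 in strip 12. Kdm5b-yfp 2C samples were at 0.407 to 0.596 in strip 11, and the single library of strip 12 was at 0.458. This ratio was looked at after the values of both genes had been seen, and it is given without a test. In the peripheral stalk, Atp5h fell by 1.78 (SE 0.20, edgeR adjusted p = 6.41e-08) and Atp5j by 1.35 (SE 0.32, edgeR adjusted p = 0.000851), while 41.9% of the Atp5h transcript was shared with other annotated genes. Atp5f1 and Atp5o, which also belong to the stalk, did not pass, at -0.04 (SE 0.16, edgeR adjusted p = 0.857) and 0.71 (SE 0.39, edgeR adjusted p = 0.13). Of the transcripts of these genes, 34.4% and 44.5% were shared with other annotated genes.

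The membrane ring of subunit c is encoded by 3 genes that give the same mature protein. In control zygotes Atp5g2 was the highest of them, at 13.1 to 48.5 TPM (median 27.7), followed by Atp5g3 at 10.1 to 27.9 TPM (median 17.1) and Atp5g1 at 2.89 to 17.0 TPM (median 11.6), with overlapping ranges. In control 2C samples the order of the medians was turned round: Atp5g1 was at 0 to 42.2 TPM (median 20.8), Atp5g3 at 1.13 to 36.5 TPM (median 12.7) and Atp5g2 at 0 to 35.9 TPM (median 7.82), again with overlap. The change was 1.16 for Atp5g1 (SE 0.46, edgeR adjusted p = 0.0377), -1.14 for Atp5g2 (SE 0.48, edgeR adjusted p = 0.0464) and -0.25 for Atp5g3 (SE 0.39, edgeR adjusted p = 0.626). The calls of Atp5g1 and Atp5g2 were both close to the threshold, and each was lost without 1 or another of several samples. With the 2C samples of strip 11 only, Atp5g1 was at 0.81 (edgeR adjusted p = 0.387) and Atp5g2 at -0.61 (edgeR adjusted p = 0.513).

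**Figure D3:**
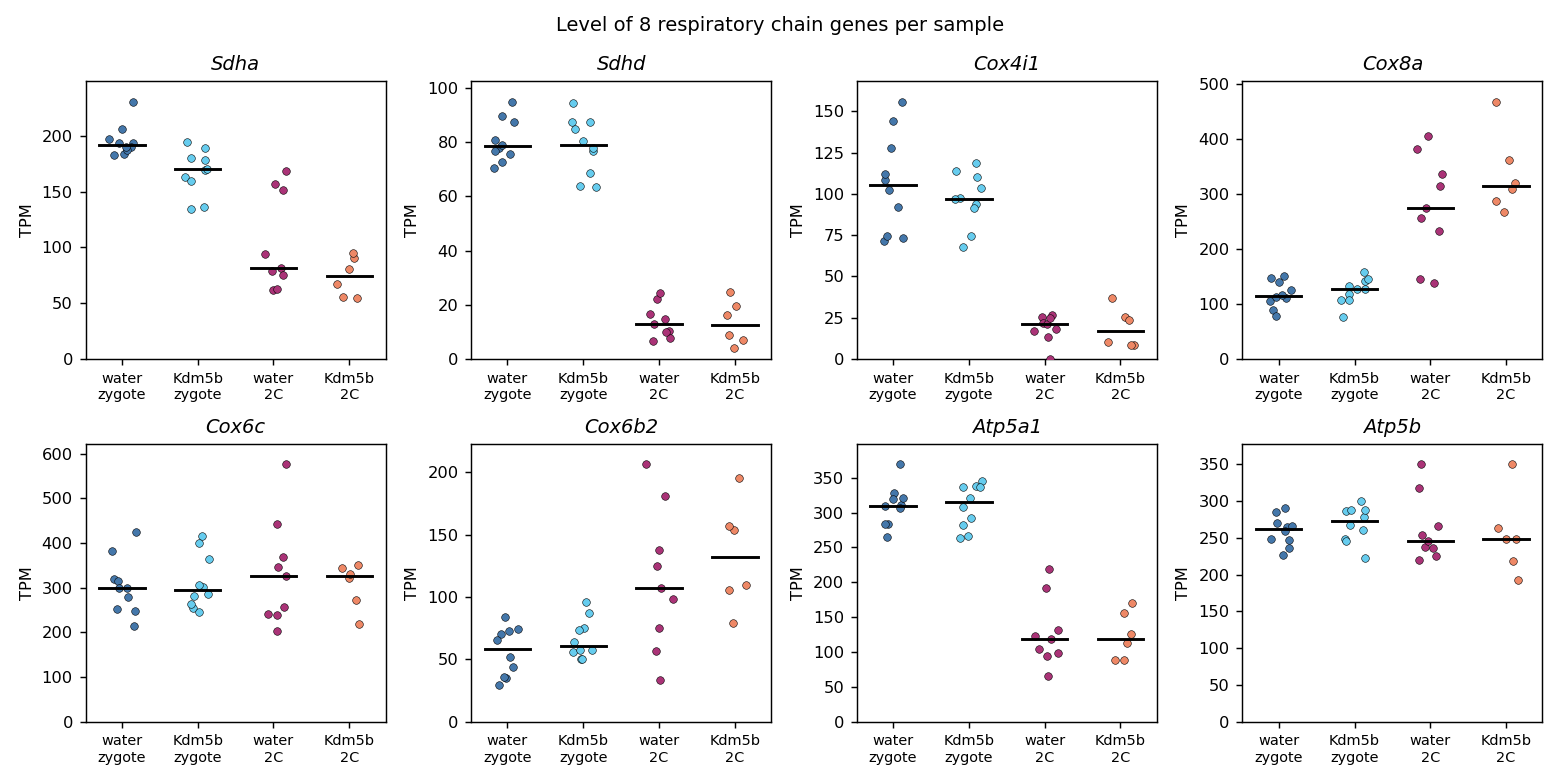
TPM (vertical axes, each starting at 0) of Sdha, Sdhd, Cox4i1, Cox8a, Cox6c, Cox6b2, Atp5a1 and Atp5b in every sample of the 4 groups, with a bar at the group median. Sdhd, Cox4i1 and Atp5a1 separate the stages downwards, Cox8a is higher in most 2C samples, and Cox6c and Atp5b overlap.

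The promoters of respiratory chain genes are known for sites of NRF1, ETS family factors and YY1. RefSeq windows of GRCm38.p6, from 250 bases before to 50 bases after the start, were matched for 72 of the 87 genes and searched on both strands. The letters of an NRF1 site were taken as GCGCATGCG, which can match on both strands at once. Those of an ETS site were taken as CCGGAAG and those of a YY1 site as AAGATGGCG. The letters of the TATA box, a common core promoter element, were searched as TATAAA. The windows of 6 genes are shown for 120 bases before and 10 bases after the start, 5′ to 3′ on the gene's strand with matches in capitals, because the same letters stand before genes with different calls. Cox8a and Ndufa11 were called higher in control 2C samples, Sdhd, Ndufb7 and Atp5g2 lower, and Cox6b1 did not pass. The calls of Ndufa11 and Atp5g2 were close to the threshold and were lost in several of the fits that left out 1 sample. Cox8a lies at chr19:7217607-7217736 on the minus strand, Ndufa11 at chr17:56717642-56717771 on the plus strand, Sdhd at chr9:50603840-50603969 on the minus strand, Ndufb7 at chr8:83566638-83566767 on the plus strand, Atp5g2 at chr15:102671038-102671167 on the minus strand and Cox6b1 at chr7:30626105-30626234 on the minus strand.
Cox8a: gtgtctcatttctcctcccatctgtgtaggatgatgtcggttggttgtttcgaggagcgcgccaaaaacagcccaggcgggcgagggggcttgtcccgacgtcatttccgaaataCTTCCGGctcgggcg
Sdhd: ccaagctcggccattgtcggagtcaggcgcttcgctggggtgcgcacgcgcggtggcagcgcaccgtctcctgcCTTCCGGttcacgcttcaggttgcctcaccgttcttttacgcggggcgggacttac
Ndufb7: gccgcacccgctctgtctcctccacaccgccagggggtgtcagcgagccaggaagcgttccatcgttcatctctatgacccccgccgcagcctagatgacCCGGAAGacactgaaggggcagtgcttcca
Cox6b1: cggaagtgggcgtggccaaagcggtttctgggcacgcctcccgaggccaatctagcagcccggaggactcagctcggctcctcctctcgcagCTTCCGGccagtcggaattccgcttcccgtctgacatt
Ndufa11: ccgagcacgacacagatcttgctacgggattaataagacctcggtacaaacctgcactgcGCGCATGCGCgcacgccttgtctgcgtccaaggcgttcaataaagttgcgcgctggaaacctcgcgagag
Atp5g2: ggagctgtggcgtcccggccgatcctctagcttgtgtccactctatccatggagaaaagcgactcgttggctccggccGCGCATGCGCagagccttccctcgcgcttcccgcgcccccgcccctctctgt
The first 4 windows each hold the ETS letters, which begin 5 bases before the start in Cox8a, 46 before it in Sdhd, 20 before it in Ndufb7 and 28 before it in Cox6b1. The last 2 hold the NRF1 letters as a palindrome that begins 60 bases before the start in Ndufa11 and 42 before it in Atp5g2. Outside the stretches shown, Cox8a held the ETS letters again, 32 bases after the start. Ndufb7 held the TATA box letters 235 bases before it.

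Over the 72 genes with a window, the NRF1 letters were found in 13.9%, the ETS letters in 22.2%, the YY1 letters in 11.1% and the TATA box in 6.94%. Over the windows of all 27025 genes the shares were 1.95%, 9.93%, 1.64% and 15.7%, and over the 9208 of them tested between the control groups 4.31%, 19.9%, 3.62% and 8.86%. Among the 31 respiratory chain genes that were lower in control 2C samples and had a window, 12.9% held the NRF1, 25.8% the ETS and 9.68% the YY1 letters. Among the 34 that did not pass, the shares were 14.7%, 20.6% and 14.7%. Of the 4 higher genes, 1 held the NRF1 and 1 the ETS letters. These are matches of letters, given as a description.

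The same stage difference was measured a second time in the Kdm5b-yfp groups, which share no sample with the controls. As in the controls, the stage cannot be told apart here from thawing or the day of library preparation. Of 83 genes tested, 52 were lower in 2C samples and 4 higher, with a median log2 fold change of -0.97. Of the 12390 genes tested in this comparison, 29.5% were lower and 29.3% higher, with a median of 0.01. The summed cumulus markers had medians of 34.6 TPM in Kdm5b-yfp zygotes and 18.3 TPM in Kdm5b-yfp 2C samples, and the summed sperm markers 25.2 and 9.79 TPM. Among the tested ones, Cyp19a1 was lower (-0.87, edgeR adjusted p = 0.00147), Prm2 was lower (-2.12, edgeR adjusted p = 0.000217) and Has2 did not pass (-0.70, edgeR adjusted p = 0.36). Their part in the result was not tested. All 41 genes called lower in the controls were also called lower here, which made up 78.8% of the 52. Over all genes, 2738 were lower in both, which was 90.1% of those lower in the controls and 74.9% of those lower in the Kdm5b-yfp groups. The genes higher in both were Cox8a, Cox6b2 and Atp5g1, and no respiratory chain gene was called in opposite directions. The call of Atp5g1 in the Kdm5b-yfp groups was lost in several fits. It was at 1.02 with all 35 samples in 1 fit (edgeR adjusted p = 0.0532). With the replicate number as a block it was at 0.71 (edgeR adjusted p = 0.235), and without Kdm5b-yfp 2C replicate 1 at 0.75 (edgeR adjusted p = 0.0615). Over all genes, 2721 were higher in both, 84.8% of those higher in the controls and 75.1% of those higher in the Kdm5b-yfp groups. Only 4 of all genes were called in opposite directions. Every Kdm5b-yfp 2C sample lay below every Kdm5b-yfp zygote for 32 of the 87 genes and for 18.3% of the genes tested.

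By complex, 22 of 37 complex I subunits were lower and 1 was higher, as were 6 and 0 of the 6 assembly factors, 3 and 0 of 4 complex II genes, 6 and 0 of 8 complex III genes, 6 and 2 of 12 complex IV genes and 9 and 1 of 16 complex V genes, with Atp5sl among the 9. Sdhd was at 63.6 to 94.5 TPM in Kdm5b-yfp zygotes (median 79.0) and 3.90 to 24.8 TPM in Kdm5b-yfp 2C samples (median 12.5), at -2.44 (SE 0.27, edgeR adjusted p = 3.16e-08). Cox4i1 went from 67.6 to 119 TPM (median 97.2) to between 8.34 and 36.8 TPM (median 16.9), at -2.26 (SE 0.27, edgeR adjusted p = 1.02e-07). Cox8a, at 77.0 to 158 TPM in zygotes (median 128) and 267 to 468 TPM in 2C samples (median 314), was the single respiratory chain gene with every 2C sample above every zygote, at 1.55 (SE 0.15, edgeR adjusted p = 4.22e-09). Of all genes tested, 10.4% had every Kdm5b-yfp 2C sample above every Kdm5b-yfp zygote. Ndufb7 fell by 3.33 (SE 0.43, edgeR adjusted p = 4.02e-07), and Atp5b did not pass, with medians of 273 TPM in zygotes and 248 TPM in 2C samples (0.02, SE 0.10, edgeR adjusted p = 0.896). Ndufa13, an accessory subunit also known as GRIM-19, was called higher here (0.91, SE 0.24, edgeR adjusted p = 0.00217) and not in the controls (0.81, SE 0.43, edgeR adjusted p = 0.122), where it was called higher without control 2C replicates 2 and 3 (1.11, edgeR adjusted p = 0.00396). The third c-ring gene, Atp5g3, was at 13.3 to 26.8 TPM in Kdm5b-yfp zygotes (median 22.2) and 3.66 to 14.9 TPM in 2C samples (median 4.22), at -1.55 (SE 0.35, edgeR adjusted p = 0.000451). Medians of Atp5g1 and Atp5g2 were 11.4 and 20.6 TPM in Kdm5b-yfp zygotes and 23.4 and 6.07 TPM in Kdm5b-yfp 2C samples. As in the controls, Atp5g1 had the lowest c-ring median in zygotes and the highest in 2C samples. The order of Atp5g2 and Atp5g3 differed from the controls at both stages.

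**Figure D4:**
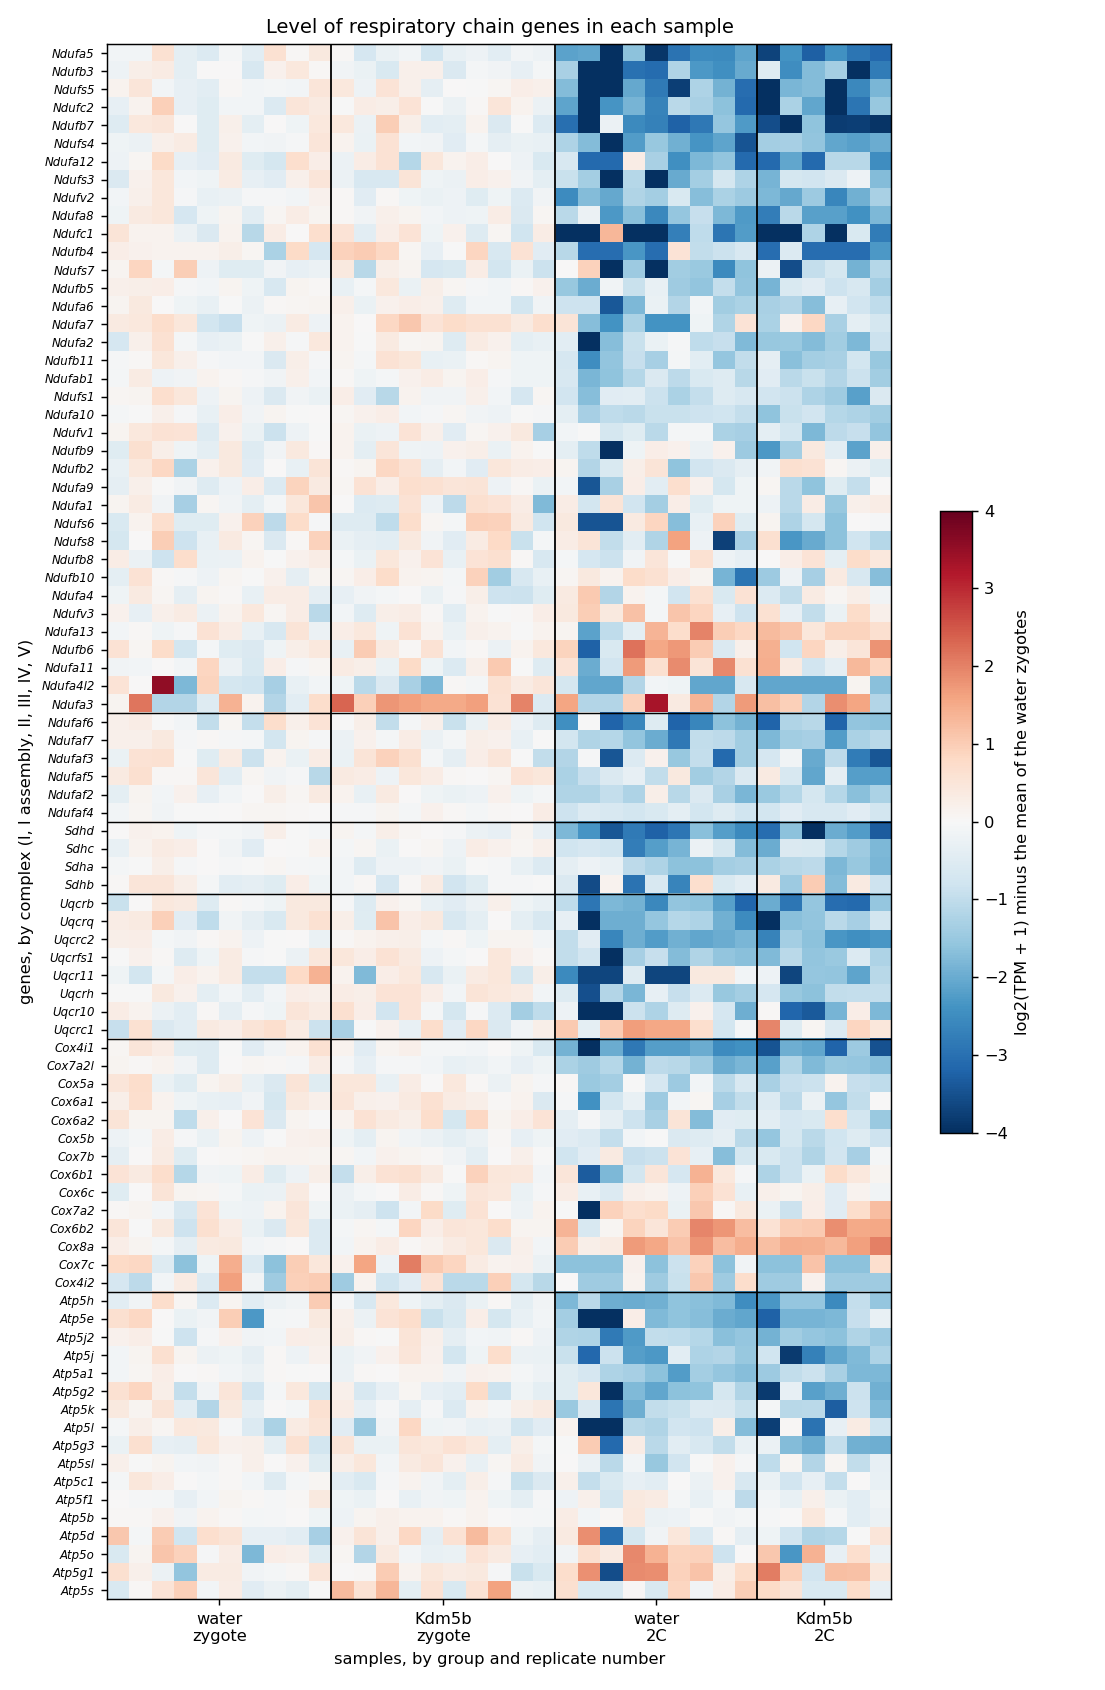
Level, as log2(TPM + 1), of the respiratory chain genes (rows, grouped by complex) in each of the 35 samples (columns, grouped by stage and injection), minus the gene's mean in control zygotes. The 2C columns are lower over most rows, with Cox8a among the rows that are higher, and control 2C replicates 2 and 3 hold 21 and 23 genes at a count of 0.

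Other genes of mitochondrial energy metabolism were counted in the control comparison, against the 25.4% lower and 26.8% higher of all genes tested. Of 29 tested assembly factors of complexes other than I, 11 were lower and 3 higher, among the lower Surf1 of complex IV (-1.82, edgeR adjusted p = 4.74e-08) and Uqcc1 of complex III (-1.13, edgeR adjusted p = 4.21e-06). Of 16 tricarboxylic acid cycle and pyruvate dehydrogenase genes, 9 were lower and 3 higher, with Idh3a and Pdha1 each at -1.22 (edgeR adjusted p = 2.16e-09 and 5.61e-09). Of 16 genes of mitochondrial protein import, 6 were lower and 2 higher, and of 75 mitochondrial ribosomal protein genes 43 were lower and 5 higher, with a median of -0.99. Cytosolic ribosomal protein genes, which are also short and abundant, had 35 of 81 lower and 16 higher, with a median of -0.59. Among 10 regulators of mitochondrial genes 4 were lower and 4 higher, with the mitochondrial transcription factor Tfam at -1.42 (edgeR adjusted p = 4.67e-08) and the transcription factor Yy1 at 2.30 (edgeR adjusted p = 7.8e-08). Atpif1, the inhibitor of ATP synthase, fell by 1.16 (SE 0.16, edgeR adjusted p = 1.65e-06). The electron carrier cytochrome c, encoded by Cycs, fell by 0.79 (edgeR adjusted p = 0.000286). Cyc1, the cytochrome c1 of complex III, which the name rule did not take in, was at 1.28 (SE 0.61, edgeR adjusted p = 0.0815) in the controls and was called higher in the Kdm5b-yfp groups, at 1.47 (SE 0.44, edgeR adjusted p = 0.00563).

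The subunits encoded in the mitochondrial genome went in the opposite direction. All 12 tested genes were higher in control 2C samples and 0 were lower, with a median log2 fold change of 1.88. ND2 and ND4, subunits of complex I, were at 1.96 and 1.99 (edgeR adjusted p = 9.32e-09 and 1.14e-08). The summed level of all 13 genes of the list had a median of 22408 TPM in control zygotes and 65486 TPM in control 2C samples, and 23498 and 68591 TPM in the Kdm5b-yfp groups. In control 2C samples it was 35871 to 39109 TPM in the 3 libraries of strip 11 and 52305 to 103259 TPM in the 6 of strip 12. In Kdm5b-yfp 2C samples it was 43284 to 110967 TPM in the 5 libraries of strip 11 and 69421 TPM in the single library of strip 12. With the 2C samples of strip 11 only, 8 of the 12 genes were higher, and of the nuclear respiratory chain genes 36 were lower and 1 higher, against 20.3% lower and 17.1% higher of all genes tested. With those of strip 12 only, all 12 were higher, and 45 nuclear genes were lower and 6 higher, against 28.3% and 27.8% of all genes tested.

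Whether Kdm5b-yfp mRNA altered these genes was asked within each stage. In zygotes, 83 were tested and none was called by edgeR, with 8 at an unadjusted p under 0.05, against 1234 of all 11933 genes tested. Of these 11933 genes, 0.117% were lower and 0.0168% higher. The median log2 fold change of the 83 genes was -0.01, and estimates ran from -1.41 for Ndufa4l2 to 0.60 for Ndufa7. The value of Ndufa4l2 rested on control zygote replicate 3, at 48.7 TPM against at most 6.87 TPM in the other control zygotes, and without that library it was 0.005 (SE 0.52). In 2C samples, 77 were tested and none was called, with 0 at an unadjusted p under 0.05, against 1152 of all 12244 genes tested. Of these 12244 genes, 0.0245% were lower and 0.0% higher. The median was -0.05, and estimates ran from -1.16 for Ndufb7 to 0.73 for Ndufs3. DESeq2's Wald test called 1 gene, Sdha, in zygotes and 0 in 2C samples, with 9 and 2 at an unadjusted p under 0.05. It gave no adjusted p for 51 of the 87 genes in zygotes and 74 in 2C samples. Over all genes with an unadjusted p, it called 84 of 20409 lower in zygotes (0.412%) and 84 of 19335 in 2C samples (0.434%). These totals include genes without an adjusted p, which could not be called. The spread between samples limits what these comparisons could show.

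**Figure D5:**
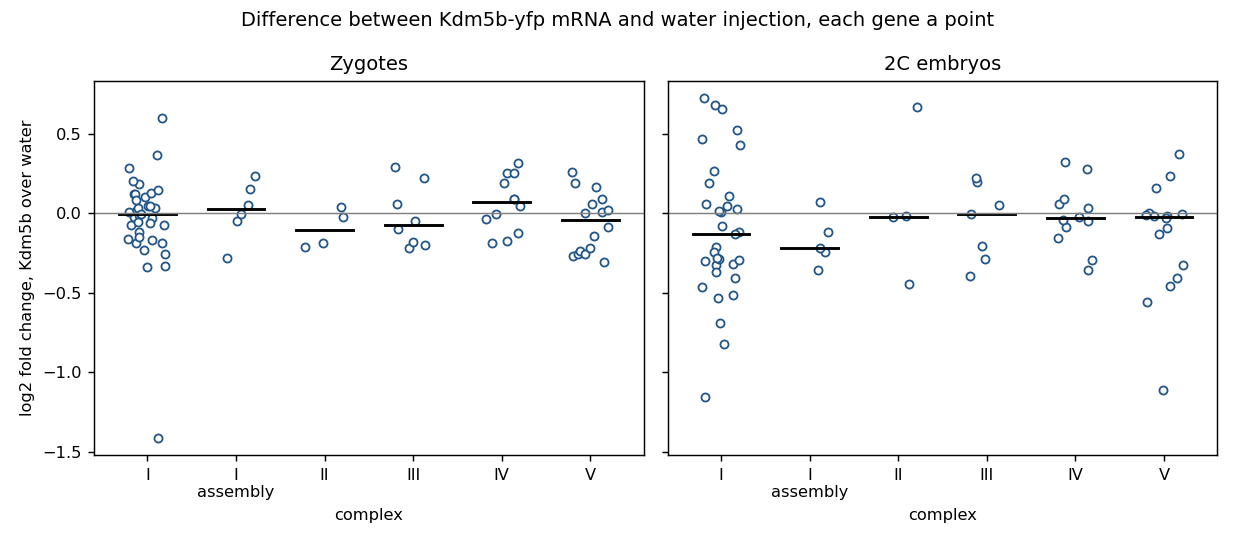
Log2 fold changes of Kdm5b-yfp samples against controls for each respiratory chain gene, by complex, in zygotes and in 2C samples, with a bar at the median of each complex. The points scatter around 0, more widely in 2C samples, and no gene passes an adjusted p of 0.05 in edgeR's test.

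Sdha had the smallest p of these genes in both injection comparisons. In zygotes it was at 183 to 231 TPM in controls (median 192) and 134 to 194 TPM after Kdm5b-yfp injection (median 170), with overlapping groups. The log2 fold change was -0.21 (SE 0.06, edgeR adjusted p = 0.157), and DESeq2 gave -0.22 with an adjusted p of 0.0376. In 2C samples it was at 61.9 to 169 TPM in controls (median 81.4) and 54.5 to 94.6 TPM after Kdm5b-yfp injection (median 74.1), at -0.44 (SE 0.22, edgeR adjusted p = 0.565). The control values differed by strip, with 152 to 169 TPM in the 3 libraries of strip 11 and 61.9 to 94.1 TPM in the 6 of strip 12. Among the Kdm5b-yfp samples, the 5 libraries of strip 11 were at 54.5 to 94.6 TPM and the single library of strip 12 at 67.3 TPM. With a single library in strip 12, a split among them could not be judged. With the strip as a covariate Sdha was at -0.73 (SE 0.18, edgeR adjusted p = 0.0325), where 1.51% of all genes were called lower. With strip 11 only it was at -1.03 (edgeR adjusted p = 0.0323), where 0.813% were. Both of the libraries that stood apart, control 2C replicates 2 and 3, belong to strip 11, and without them the value was -0.19 (edgeR adjusted p = 0.85). Strip 12 held a single Kdm5b-yfp sample, so no value within it can be tested. The next smallest p in zygotes belonged to Uqcrh (0.29, edgeR adjusted p = 0.352) and Ndufv2 (-0.23, edgeR adjusted p = 0.417), and in 2C samples to Cox5b (-0.35, edgeR adjusted p = 0.6) and Atp5g3 (-1.11, edgeR adjusted p = 0.613).

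A single fit over all 35 samples asked whether Kdm5b-yfp acted differently at either stage, through the interaction of stage and injection. Of 86 respiratory chain genes tested none was called by edgeR, with 1 at an unadjusted p under 0.05, and 0.109% of all 13778 genes tested were called. DESeq2 called 0 of them, with 2 at an unadjusted p under 0.05. The gene below 0.05 in edgeR was Atp5g3, with an interaction of -1.29 on the log2 scale (SE 0.53, edgeR adjusted p = 0.43). Its call in the Kdm5b-yfp stage comparison and not in the controls was therefore not shown to be a difference between them, and nor was that of Ndufa13.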

How the data were processed

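Total RNA of single zygotes and 2C embryos was sequenced by the authors with a stranded total RNA kit. Per the submitters' processing notes and the study's methods, reads were trimmed with fastp 0.21.0, aligned to GRCm38 with STAR 2.7.3a, handled with SAMtools 1.10 and counted on RefSeq exons with featureCounts 1.5.1 by strand, without reads that map to several places. The authors deposited the raw count of each of 24480 genes in each of the 35 samples together with exon lengths. No other columns of samples were present, and 0 pairs of libraries held identical values. The separately deposited table of repeats was not used here.

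With the Kdm5b row removed, edgeR 4.0.16 (R 4.3.3) was run for each comparison on the samples of its groups alone (TMM, filterByExpr with a minimum count of 10, quasi-likelihood test), with p-values adjusted by the Benjamini-Hochberg method over all genes tested. The interaction used all 35 samples. A gene was called at an adjusted p under 0.05. TPM came from counts and exon lengths without Kdm5b. Comparisons that have a group in common are not independent. The replicates are separate embryos or pools of blastomeres. The fits were tested on simulated data.

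Named genes were the complex II genes, the nuclear core subunits of complex I, Uqcrfs1, Cox4i1, the alpha, beta and c subunits of ATP synthase and its inhibitor, the isoform pairs of complex IV, the gene with the largest change in each direction among those called in each complex and stage comparison, and the 3 with the smallest p in each injection comparison. Members of counts of at most 5 could be named too, and the genes Ndufaf4, Cox6c, Cox7a2l, Ndufa7, Ndufa4l2, Uqcrc1, Atp5f1, Atp5o and Atp5sl were named after their values had been seen. Not every gene that this rule names is reported here or drawn by name. From other lists the 2 genes with the smallest p were named. The respiratory chain genes, the lists and the tests were chosen with earlier results of these data known. Alternatives were DESeq2 1.42.0 (size factors and Wald test), other filters on low counts, the Kdm5b row kept, mitochondrial genes removed, all samples in 1 fit, a block for the replicate number, single intact embryos, a covariate for the index strip and each sample left out. The fits without control 2C replicates 2 and 3 and within strips were added after the data had been seen. Shared sequence was counted as stretches of 60 bases of GENCODE M21 transcripts that also occur in other genes. Figures were drawn with matplotlib 3.10.9 in Python 3.11.15.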

Additional observations from a re-analysis of the deposited data

Results flagged for a closer look

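Named genes and summed complexes were examined in groups of 6 to 10 samples, 176 gene and group combinations in all. In 14 of these, the highest or lowest sample was far from the rest by Dixon's criterion. Independent, normally distributed values meet it in about 1 in 20 groups. The combinations share libraries and some levels were near 0, so the number to be met by chance here is not known. Of the genes the report rests on, Cox4i1 was at 0.32 TPM in control 2C replicate 2, with the next lowest sample at 13.4 TPM, and Atp5h was at 155 TPM in the same library, with the next at 105 TPM. Sdha was at 231 TPM in control zygote replicate 3, with the next at 206 TPM, and Atp5j was at 42.1 TPM in that library, with the next at 30.8 TPM. Ndufb7 was set apart in 3 groups, at 40.9 TPM in control 2C replicate 3 (next 15.9 TPM), 15.5 TPM in Kdm5b-yfp 2C replicate 3 (next 3.27 TPM) and 97.2 TPM in Kdm5b-yfp zygote replicate 3 (next 66 TPM). Ndufs8 was at 50.1 TPM in control 2C replicate 6 (next 22.6 TPM) and 24.9 TPM in Kdm5b-yfp 2C replicate 1 (next 8.58 TPM).

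Ndufa11 was at 6.17 TPM in control zygote replicate 5 (next 3.81 TPM), and Atp5g2 at 44.6 TPM in Kdm5b-yfp zygote replicate 7 (next 30.1 TPM). Cox6a2 was at 38.6 TPM in Kdm5b-yfp 2C replicate 4 (next 17.2 TPM), and Cox4i2 at 2.03 TPM in Kdm5b-yfp 2C replicate 3, where the other samples were at 0. The summed complex I assembly factors were at 319 TPM in control 2C replicate 5 (next 223 TPM).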

How the results depend on the processing

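The count of respiratory chain genes lower in control 2C samples was 41 and ranged from 36 to 45 over the alternatives and from 38 to 44 with each sample left out, and that of the Kdm5b-yfp groups was 52 and ranged from 44 to 53. The small count of higher genes, 4 in the controls, depended on the processing: it was 2 without a filter on low counts, 2 with the replicate number as a block, 7 without control 2C replicates 2 and 3, 1 with the 2C samples of strip 11 only, and 2 to 7 with each sample left out. It was 2 without control zygote replicate 2, 3, 4, 8 or 9 or without control 2C replicate 4 or 7, and 7 without control 2C replicate 2. Ndufa11 turned to -0.58 (edgeR adjusted p = 0.58) with strip 11 only. Respiratory chain genes lower after Kdm5b-yfp injection numbered 0 in edgeR, but 1 in zygotes by DESeq2's Wald test, and 1 in 2C samples with a covariate for the index strip and 1 with strip 11 only, each time Sdha. The cause was not tested. In Kdm5b-yfp 2C samples the mean summed level of all 87 genes was 3239 TPM, and 3042 TPM with the Kdm5b row kept or 3482 TPM with the mitochondrial genes left out, and that of complex I was 761 and, without the mitochondrial genes, 818 TPM. The correlation of the deviations of samples with the same replicate number was over 0.1 in 0 of 9 pairs between the control stages (-0.08 to 0.07), 0 of 6 between the Kdm5b-yfp stages, 1 of 10 in zygotes (-0.09 to 0.15) and 3 of 6 in 2C samples (-0.29 to 0.15), so the number was not taken to pair samples. With it as a block, 41 genes were lower in the controls, and 51 lower and 3 higher in the Kdm5b-yfp groups, with 0 in both injection comparisons and the interaction.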
